A study of Mus musculus with 2 samples.

Results

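The 8 genes described here encode histone demethylases, the enzymes that erase methyl groups from histone tails: Kdm6a, Kdm6b, Kdm1a, Kdm2b, Kdm4a, Kdm5a, Kdm5b and Kdm5c. They were chosen by symbol, and each symbol matched exactly 1 of the 32285 genes counted in each library. Both libraries were made from leukemic bone marrow cells of mice carrying the PLZF/RARA fusion, a gene fusion of acute promyelocytic leukemia that responds poorly to retinoic acid. Late promyelocytes were sorted as CD45.2-positive, c-Kit-positive, Gr1-positive, Fcγ receptor-positive and CD34-negative, and polyadenylated RNA was counted by droplet 3′ sequencing. The vehicle library came from animals given corn oil with 10% DMSO into the peritoneum, and the retinoic acid library from animals given 0.8 to 1 mg of retinoic acid by the same route, in both cases for 7 days. Cells of both groups carry the fusion. Strain, age and the number of mice behind each library are not given in the sources used here, where a cohort is stated to hold 3 to 5 mice.

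Histone H3 trimethylated at lysine 27 (H3K27) marks genes silenced by Polycomb repressive complex 2, whose catalytic subunit is EZH2. KDM6A (also called UTX) and KDM6B (JMJD3) remove that mark, and KDM6B is known as an inducible gene of myeloid cells. KDM1A (LSD1) removes mono- and dimethyl marks from H3 lysine 4 within the CoREST complex, where GFI1 recruits it to myeloid genes, and the KDM5 enzymes remove trimethyl marks from the same residue. KDM4A acts on H3 lysines 9 and 36. KDM2B acts on H3 lysine 36 and brings a variant Polycomb complex, PRC1.1, to unmethylated CpG islands. The study concerns the part of EZH2 in resistance to retinoic acid.

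The promoters of the members are shown for the letters that retinoid receptors bind. RefSeq windows of 300 bases (GRCm38.p6, from 250 bases upstream of the start to 50 bases into the gene) were found for 6 of the 8 members, 9 windows in all because Kdm2b has several starts. No window was found for Kdm6b or Kdm5a. The hexamer AGGTCA, searched on both strands, stood in 2 of the 9 windows, those of Kdm1a and Kdm6a, and in 16.3% of all 32851 windows. Direct repeats of exactly AGGTCA with 2 or 5 bases between the copies, the spacings of classical response elements, stood in none of the 9. They stood in 0.00913% of all windows each. Repeats this rare would hardly be met in 9 windows, so their absence says nothing about the members. Variants of the hexamer were not searched. The 2 windows with the hexamer follow, with the hexamer in capitals. It lies 115 to 110 bases upstream of the Kdm1a start (window chr4:136602674-136602973, minus strand) and 31 to 26 bases upstream of the Kdm6a start (window chrX:18162325-18162624, plus strand). A match of letters is a description of the window and not a bound site.
Kdm1a promoter: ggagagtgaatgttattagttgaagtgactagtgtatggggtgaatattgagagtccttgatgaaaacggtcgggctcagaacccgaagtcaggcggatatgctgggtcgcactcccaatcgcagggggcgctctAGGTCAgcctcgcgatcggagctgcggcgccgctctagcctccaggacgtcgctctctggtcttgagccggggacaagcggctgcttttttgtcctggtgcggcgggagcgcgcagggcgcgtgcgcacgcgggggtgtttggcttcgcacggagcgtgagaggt
Kdm6a promoter: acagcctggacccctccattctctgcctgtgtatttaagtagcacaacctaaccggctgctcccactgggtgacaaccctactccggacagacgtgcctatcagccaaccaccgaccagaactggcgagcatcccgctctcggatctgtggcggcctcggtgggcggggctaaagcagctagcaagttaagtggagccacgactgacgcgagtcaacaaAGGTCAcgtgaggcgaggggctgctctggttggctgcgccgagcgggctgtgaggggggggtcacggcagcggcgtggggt

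The cells that passed the filters numbered 5476 with vehicle and 7140 with retinoic acid. They gave 99107718 and 110088247 UMIs (unique molecular identifiers, each marking 1 captured RNA molecule), with medians of 16750 and 14604 UMIs per cell. The libraries share 11 cell barcodes, 0.201% of the vehicle cells and 0.154% of the retinoic acid cells. Of 10 promyelocyte markers, 9 were in the files and all 9 were detected in both libraries, 1 of them under 1 CPM in the retinoic acid library. Their summed level was 12852 and 23058 CPM (a gene's counts scaled to 1000000 UMIs of the library). Markers of other cells moved between the libraries: the summed level of 10 mast cell and basophil genes went from 806 to 68.1 CPM, of 8 eosinophil genes from 126 to 34.8 CPM, of 10 monocyte and macrophage genes from 80.2 to 9.13 CPM, of 8 T and NK cell genes from 1284 to 575 CPM and of 8 B cell genes from 7.56 to 44.9 CPM. Most of the monocyte (8 of 10) and T and NK genes (7 of 8) were under 1 CPM in each library, and Cd3e, Cd4, Cd8a, Pax5, Fcer1a, Tpsb2 and Tpsab1 were at 0 counts in both. The part of these differences in the results below was not tested. Each group held 1 library, so differences between libraries have no replicate check, no test was made, and all intervals are 95% intervals of counting error only. Differences between mice, sorts and preparations are part of every ratio.

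All 8 demethylases were expressed in both libraries, and none differed between them by as much as 1.5-fold. Kdm2b and Kdm1a were higher in the retinoic acid library and the other 6 were lower. Kdm2b was at 23.4 CPM (22.5 to 24.4) with vehicle and 32.4 CPM (31.3 to 33.5) with retinoic acid, a log2 ratio of 0.47 (0.39 to 0.55). Kdm4a stood at the other end with 21.7 CPM (20.8 to 22.7) and 15.4 CPM (14.6 to 16.1), a log2 ratio of −0.50 (−0.59 to −0.41), and equal weight for every cell took it past 1.5-fold, to −0.60. Against 0 of the 8 members, 21.6% of the 9145 genes that reached 5 CPM in 1 or both libraries differed that much either way (8.69% higher and 12.9% lower with retinoic acid), and the median log2 ratio was −0.01 over all these genes and −0.23 over the members. The intervals of the libraries do not overlap for any of the 8, but an interval of counting error says nothing about how far 2 mice would differ.

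**Figure D1:**
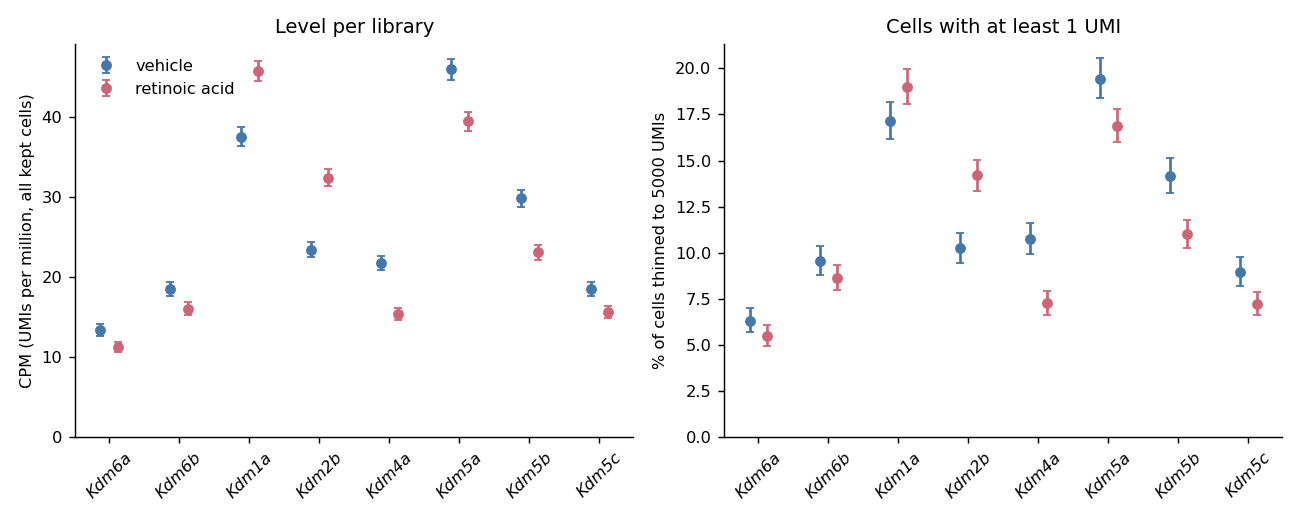
Level per library in CPM (left) and percent of cells with at least 1 UMI after each cell was thinned to 5000 UMIs (right) for the 8 demethylase genes; points are the vehicle (blue) and retinoic acid (red) library, bars the 95% counting intervals, n = 1 library per group. Kdm1a and Kdm2b are higher with retinoic acid in both panels and the other 6 genes are lower.

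Among the erasers of H3K27 methylation, Kdm6a (ENSMUSG00000037369, GRCm38 chromosome X, 18162575 to 18279936, plus strand) had 1324 counts or 13.4 CPM with vehicle and 1241 counts or 11.3 CPM with retinoic acid, a log2 ratio of −0.24 (−0.36 to −0.13). Kdm6b (ENSMUSG00000018476, chromosome 11, 69398508 to 69413675, minus strand) had 1828 counts or 18.4 CPM and 1767 counts or 16.1 CPM, a log2 ratio of −0.20 (−0.30 to −0.11). The direction of Kdm6b depended on how the phases were weighted. Weighting the phases of the cell cycle in both libraries as they stood with vehicle turned its log2 ratio to 0.17. Kdm6b was highest in G1 cells, and these were fewer with retinoic acid, as the phase levels below show. The Y-linked copy of Kdm6a, Uty, had 0 counts in both libraries, which allows up to 0.0303 CPM with vehicle and 0.0273 CPM with retinoic acid.

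The enzymes of H3 lysine 4 went in different directions. Kdm1a (ENSMUSG00000036940, chromosome 4, 136550540 to 136602723, minus strand) had 3716 counts or 37.5 CPM with vehicle and 5028 counts or 45.7 CPM with retinoic acid, a log2 ratio of 0.28 (0.22 to 0.35). The 3 KDM5 genes were all lower with retinoic acid. Kdm5a (ENSMUSG00000030180, chromosome 6, 120364124 to 120444574) was at 45.9 and 39.4 CPM, a log2 ratio of −0.22 (−0.28 to −0.16). Kdm5b (ENSMUSG00000042207, chromosome 1, 134560171 to 134635285) was at 29.8 and 23.1 CPM, a log2 ratio of −0.37 (−0.45 to −0.29). Kdm5c (ENSMUSG00000025332, chromosome X, 152233020 to 152274535), which like Kdm6a is known to escape X inactivation, was at 18.5 and 15.6 CPM, a log2 ratio of −0.24 (−0.34 to −0.15). Its Y-linked copy Kdm5d had 4 and 18 counts, under 1 CPM in both libraries.

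Kdm2b (ENSMUSG00000029475, chromosome 5, 122870665 to 122989823, minus strand) and Kdm4a (ENSMUSG00000033326, chromosome 4, 118136957 to 118180043, minus strand) had 2319 and 2152 vehicle counts, and 3566 and 1691 retinoic acid counts. In GENCODE M21, Kdm2b shares 627 bases with Rnf34 and Kdm5a 251 bases with Ccdc77, both on the opposite strand, and how the counting used strand is not given in the sources used here. Rnf34 was at 36.8 and 33.2 CPM and Ccdc77 at 13.3 and 12.4 CPM, and the part of shared reads in the values of Kdm2b and Kdm5a was not tested. Kdm6bos, which overlaps Kdm6b by 1188 bases on the opposite strand, was under 1 CPM in both libraries.

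Per cell, the demethylases were sparse. At 5000 UMIs per cell, 6.32% (5.68 to 7.01) of 5282 vehicle cells and 5.496% (4.96 to 6.07) of 6659 retinoic acid cells had a Kdm6a UMI, and 9.56% (8.78 to 10.4) and 8.62% (7.96 to 9.32) had a Kdm6b UMI. At this depth the interval of the difference took in 0 for both genes. It ran from −1.69 to 0.0213 percentage points for Kdm6a and from −1.99 to 0.094 for Kdm6b. The intervals of their log2 ratios in CPM, given above, left out 0. Intervals of differences in share treat the cells of a library as separate draws and hold counting error only. Whether the share of positive cells differs between the treatments was not tested. For the other 6 genes the interval left out 0: Kdm2b was found in 10.2% and 14.2% of cells, a difference of 3.95 points (2.77 to 5.12), Kdm1a in 17.2% and 19.0% (1.84 points, 0.453 to 3.23) and Kdm4a in 10.7% and 7.25% (−3.48 points, −4.53 to −2.45). For Kdm5a, Kdm5b and Kdm5c the difference was −2.55, −3.15 and −1.73 points. Without thinning, at unequal depth, the shares were larger: 26.5% and 20.4% for Kdm6b, 45.5% and 45.9% for Kdm1a, and 31.4% and 36.1% for Kdm2b.

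A positive cell mostly held 1 UMI of a member, with means from 1.03 to 1.14 UMIs per positive cell. A cell showed a median of 1 of the 8 genes in both libraries and at most 5. None of the 8 was seen in 36.3% of vehicle cells and 39.2% of retinoic acid cells. Both H3K27 erasers were seen together in 32 vehicle cells and 49 retinoic acid cells, 0.606% and 0.736%. Demethylases are broadly expressed, so no cell type in these libraries could serve as one that should lack them, and RNA free in the droplets was not separated from expression.

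Granule proteins are made as promyelocytes mature into neutrophils, and their genes were used to order the cells. Granule gene share means the percentage of UMIs that a cell spent on 11 such genes, Camp, Ngp, Ltf, Lcn2, Cd177, Mmp8, Mmp9, Chil3, Pglyrp1, Hp and Olfm4. The cells of each library with at least 5000 UMIs were ranked by it and split into 4 groups of near-equal size, called granule bins. The median share went from 0.465% through 1.27% and 3.68% to 12.2% over the bins of the retinoic acid library, and only from 0.0404% to 0.213% over those of the vehicle. Levels in the bins are CPM over UMIs outside these 11 genes, because the genes themselves dilute all others where they are abundant.

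Kdm6b was the 1 member at least 1.5-fold higher in the highest than in the lowest granule bin of the retinoic acid library. In the retinoic acid library it was at 10.4 CPM (9.32 to 11.6) in the lowest bin, 12.9 CPM in the second, 18.0 CPM in the third and 30.4 CPM (27.9 to 33.2) in the highest. Each step was upward, and the intervals of the lowest and highest bin lie far apart. Between the outer bins this was a 2.92-fold difference, a log2 ratio of 1.55 (1.35 to 1.75). Positive cells went the same way, from 5.35% (4.31 to 6.54) through 6.13% and 8.95% to 14.1% (12.4 to 15.8) at 5000 UMIs per cell. In the vehicle library the median granule share was only 0.213% even in the highest bin. Its bins were at 16.9, 18.0, 17.4 and 21.3 CPM, a log2 ratio of 0.34 (0.14 to 0.53). There 0 of the 8 members passed 1.5-fold, against 5.54% of 9051 genes.

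Among the 8998 genes that reached 5 CPM in the lowest or highest retinoic acid bin, 11.5% were at least 1.5-fold higher in the highest bin and 19.2% at least 1.5-fold lower. Of the 8 members 1 was higher, Kdm6b, which stood at percentile 97.1 of these genes, and 1 was lower, Kdm1a, at percentile 15.3. A count of 1 in 8 in either direction lies near the background shares. The median log2 ratio was −0.17 over all these genes and −0.16 over the members.

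**Figure D2:**
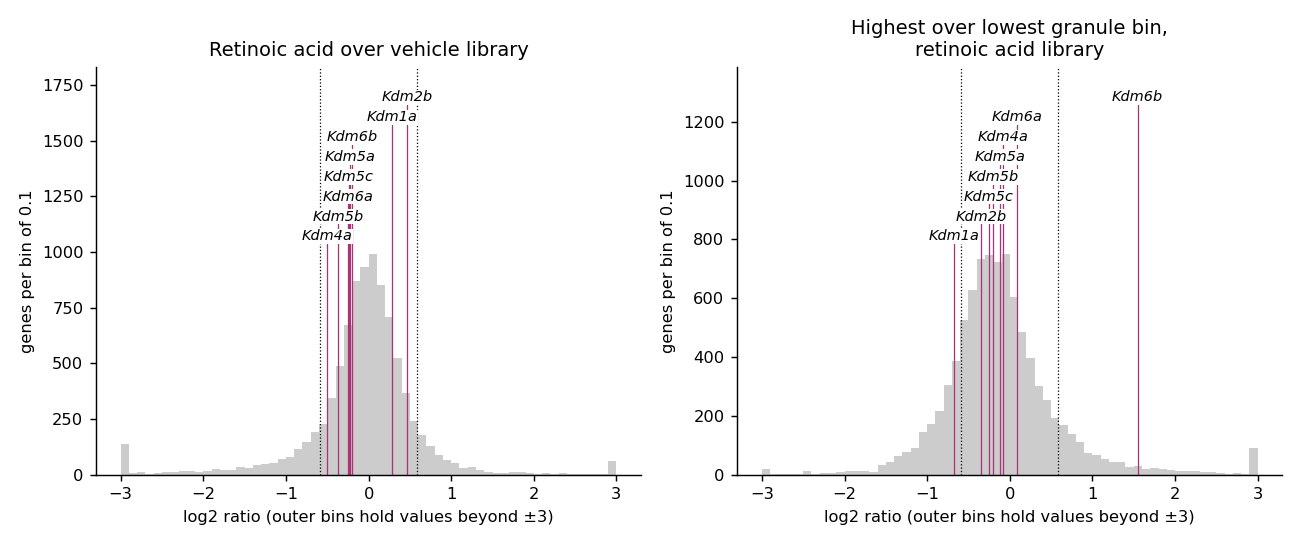
Histograms of log2 ratios over all genes with at least 5 CPM (grey, genes per bin of 0.1), for retinoic acid over vehicle (left) and for the highest over the lowest granule bin of the retinoic acid library (right); purple lines mark the 8 demethylase genes and dotted lines 1.5-fold either way. All 8 lie inside the dotted lines on the left, and Kdm6b at 1.55 and Kdm1a at −0.67 lie outside them on the right.

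Kdm1a moved opposite to Kdm6b. It was at 55.7 CPM (53.1 to 58.3) in the lowest retinoic acid bin, then 47.0 and 45.7 CPM, and 35.0 CPM (32.2 to 37.9) in the highest, a log2 ratio of −0.67 (−0.81 to −0.54). Positive cells went from 23.3% to 13.9%. The vehicle bins were at 42.2, 37.2, 36.5 and 33.5 CPM, a log2 ratio of −0.33 (−0.47 to −0.20). In the highest bin of each library the intervals of Kdm1a overlap. These 2 bins are not alike in granule share, with medians of 0.213% for vehicle and 12.2% for retinoic acid. The call of at least 1.5-fold for Kdm1a was lost with S100a8, S100a9, Retnlg and Wfdc21 added to the granule list, at −0.47.

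Kdm2b was at 35.5, 35.9, 33.4 and 27.9 CPM over the retinoic acid bins, a log2 ratio of −0.35 (−0.51 to −0.19), and between 21.9 and 24.7 CPM over the vehicle bins. Kdm6a was flat, from 11.2 to 12.3 CPM over the retinoic acid bins, with a log2 ratio of 0.09 (−0.17 to 0.33) and 5.17% to 5.95% positive cells. The 2 erasers of H3K27 methylation thus differed along granule share, since the upper bound for Kdm6a lies below the lower bound for Kdm6b. Kdm4a (−0.08, −0.29 to 0.13) and Kdm5a (−0.11, −0.25 to 0.02) had intervals that took in 0, while Kdm5b (−0.20, −0.38 to −0.03) and Kdm5c (−0.25, −0.47 to −0.03) were slightly lower in the highest bin.

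**Figure D3:**
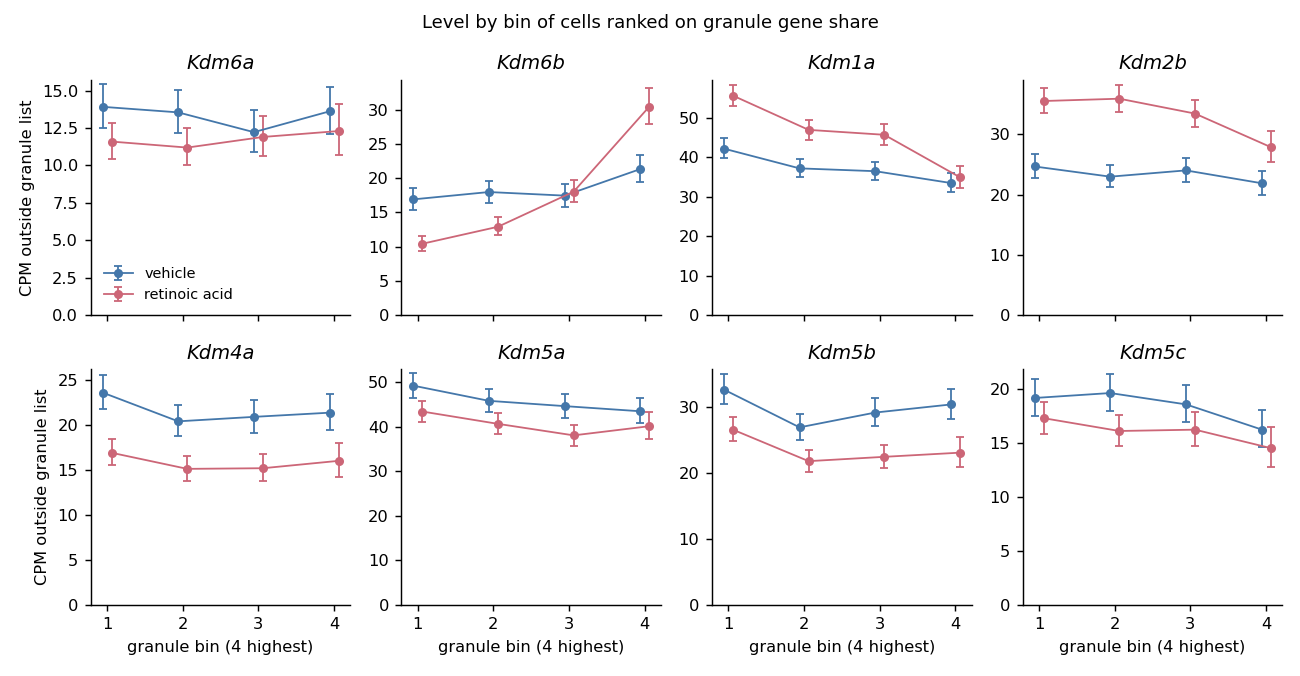
Level of each demethylase gene (CPM over UMIs outside the granule list) in the 4 granule bins of the vehicle (blue) and retinoic acid (red) library, with 95% Poisson intervals; bin 4 holds the cells with the highest granule share. Kdm6b climbs from 10.4 to 30.4 CPM in the retinoic acid library, Kdm1a goes from 55.7 to 35.0 CPM, and Kdm6a stays between 11.2 and 12.3 CPM.

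The bins also differed in other ways. The summed level of the 9 promyelocyte markers was 26958 CPM in the lowest and 12829 CPM in the highest retinoic acid bin. G1 cells made up 15.6%, 15.2%, 14.2% and 37.1% of the retinoic acid bins from lowest to highest, and median depth went from 17986 to 10762 UMIs per cell. The summed mast cell and basophil markers went from 87.8 CPM in the lowest to 23.0 CPM in the highest bin and the eosinophil markers from 77.0 to 8.67 CPM. The monocyte and macrophage markers were at 10.4 and 9.84 CPM in these bins, a sum in which 8 of the 10 genes were under 1 CPM in this library. The part of phase, depth and the markers in the bin ratios was not tested, beyond the values within each phase given below.

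Fixed bands of granule share let the libraries be read between the same limits of share. Below 0.5%, Kdm6b was at 17.9 CPM (17.0 to 18.7) in 5072 vehicle cells and 10.5 CPM (9.07 to 12.1) in 939 retinoic acid cells. From 0.5% to 2%, the levels were 25.9 CPM (19.4 to 33.8) in 134 vehicle cells and 11.98 CPM (10.9 to 13.1) in 2296 retinoic acid cells. From 2% to 10%, it was at 40.7 CPM (27.9 to 57.5, from 32 counts) in 58 vehicle cells and 18.7 CPM (17.3 to 20.1) in 2299 retinoic acid cells. Over 10%, the values were 73.7 CPM (35.3 to 136, from 10 counts) in 18 vehicle cells and 36.1 CPM (32.5 to 39.97) in 1125 retinoic acid cells. Kdm6b was thus higher in bands of higher granule share in both libraries. In each band it was higher in vehicle than in retinoic acid cells, although the last vehicle band rests on few counts. Its interval there overlaps that of the retinoic acid band. Shares were not matched within a band. The third vehicle bin ended at a share of 0.139%, while the lowest retinoic acid bin had a median of 0.465%. G1 cells made up 48.0% of the vehicle and 16.3% of the retinoic acid cells below 0.5%, 65.5% and 15.4% of those from 2% to 10%, and 100% and 46.0% of those over 10%. Kdm5b also went up over the vehicle bands, with 29.4, 38.6, 48.4 and 51.6 CPM. The third value rests on 38 counts (34.2 to 66.4 CPM) and the last on 7 counts (20.7 to 106 CPM), and their intervals overlap. The band from 2% to 10% against that below 0.5% was a comparison added after seeing the data. It gave a log2 ratio of 0.74 (0.22 to 1.18) against −0.10 between the outer vehicle bins. Over the retinoic acid bands Kdm5b was at 27.04, 23.1, 22.5 and 23.8 CPM. The part of the G1 shares in these band levels was not tested. In the band from 2% to 10%, Kdm1a was at 25.5 CPM (15.6 to 39.3) in vehicle and 44.7 CPM (42.5 to 46.99) in retinoic acid cells.

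Several members differed between the phases of the cell cycle within each library. Kdm6b in the vehicle was at 26.2 CPM in G1 cells, 12.6 in S cells and 14.1 in G2/M cells, and in the retinoic acid library at 31.5, 14.0 and 12.6 CPM. Its log2 ratio of S to G1 cells was −1.05 (−1.26 to −0.85) in the vehicle and −1.17 (−1.34 to −0.99) in the retinoic acid library. Kdm5b had the same order, with 42.5, 17.8 and 24.4 CPM in G1, S and G2/M cells of the vehicle and 38.2, 17.4 and 22.6 CPM in those of the retinoic acid library (S to G1, −1.25 and −1.14). Within each phase, the 2 libraries differed in Kdm5b by log2 ratios of only −0.15 to −0.04, against −0.37 over all cells. Kdm6b and Kdm5b were the 2 members at least 1.5-fold lower in S than in G1 cells in each library, as were 7.44% of vehicle and 5.78% of retinoic acid genes. They were also the 2 members as much lower in G2/M than in G1 cells, as were 8.02% of vehicle and 7.05% of retinoic acid genes. Between the libraries, 0 of the 8 members differed at least 1.5-fold within G1, S or G2/M cells, where 28.7%, 19.9% and 19.1% of genes did. Phase calls scored against all genes, an alternative added after seeing the data, put Kdm4a past 1.5-fold lower in S than in G1 cells of the vehicle, at −0.72 (−0.99 to −0.48) against −0.56.

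Kdm2b had the reverse order, with 17.2 CPM in G1, 29.7 in S and 25.6 in G2/M cells of the vehicle and 23.7, 36.7 and 31.9 CPM in the retinoic acid library. Its log2 ratio of S to G1 cells was 0.78 (0.62 to 0.95) and 0.63 (0.46 to 0.80), and 16.4% of vehicle and 16.6% of retinoic acid genes were at least 1.5-fold higher in S cells. Scoring against all genes brought Kdm2b with retinoic acid just under 1.5-fold, at 0.57. Kdm4a was lowest in S cells, at 16.5 CPM with vehicle and 11.8 CPM with retinoic acid. Kdm6a hardly varied, from 12.7 to 13.9 CPM over the vehicle phases and from 10.7 to 12.5 CPM over the retinoic acid phases. G1, S and G2/M cells made up 48.7%, 19.9% and 31.4% of the vehicle and 20.5%, 39.6% and 39.9% of the retinoic acid library.

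**Figure D4:**
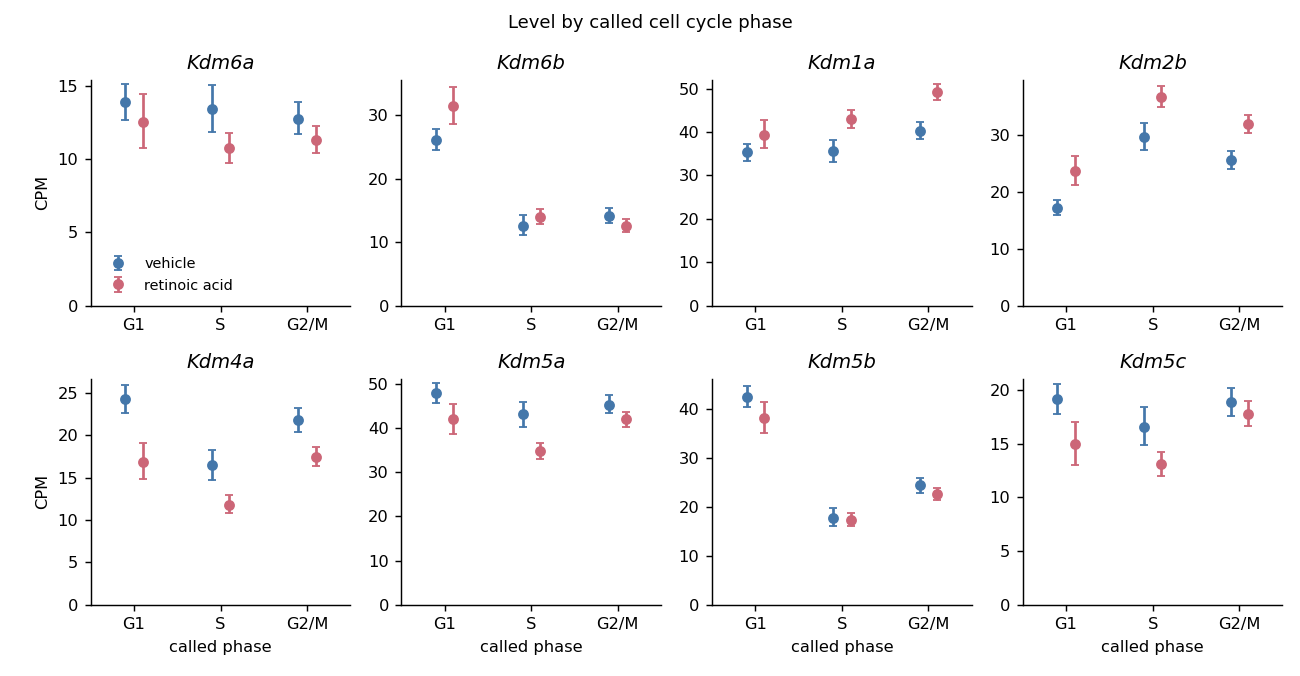
Level of each demethylase gene in CPM, in cells called G1, S or G2/M, for the vehicle (blue) and retinoic acid (red) library with 95% Poisson intervals. Kdm6b and Kdm5b are highest in G1 and Kdm2b is lowest in G1 in both libraries.

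Kdm6b was higher at high granule share within every phase of the retinoic acid library. From the lowest to the highest bin it went from 17.7 to 54.7 CPM in G1 cells (log2 ratio 1.62, 1.23 to 2.06), from 9.08 to 23.5 CPM in S cells (1.37, 1.00 to 1.74) and from 9.79 to 18.7 CPM in G2/M cells (0.93, 0.56 to 1.29). In the vehicle library, whose lowest and highest bins held 46.3% and 59.4% G1 cells, the interval for Kdm6b took in 0 in every phase, at 0.17 (−0.09 to 0.43) in G1, 0.10 (−0.45 to 0.65) in S and 0.31 (−0.06 to 0.67) in G2/M cells. Kdm1a was lower in each phase, with log2 ratios of −0.72 in G1, −0.68 in S and −0.57 in G2/M cells, the last just short of 1.5-fold. The shares of all genes at least 1.5-fold higher in the highest bin were 14.7%, 10.1% and 10.9% in G1, S and G2/M cells, and the shares as much lower 36.5%, 16% and 14.2%. Kdm2b differed by phase: G1 cells went from 31.6 to 14.5 CPM (−1.12, −1.58 to −0.67), whereas S cells stayed between 36.6 and 39.6 CPM (−0.05, −0.28 to 0.17). Kdm5b was level in G1 cells (0.08, −0.24 to 0.41) and lower in S cells, from 22.6 to 13.4 CPM (−0.75, −1.11 to −0.40).

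**Figure D5:**
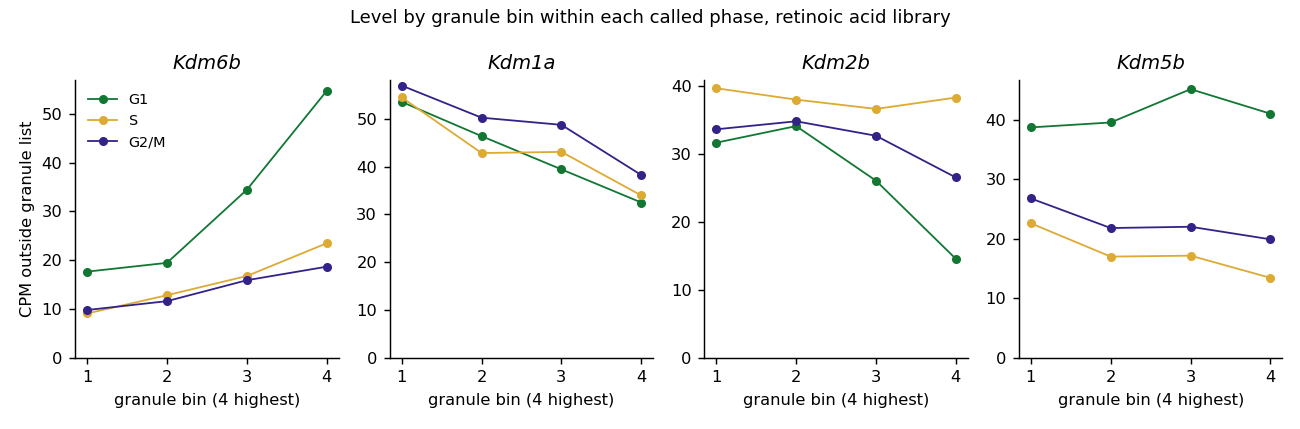
Level of Kdm6b, Kdm1a, Kdm2b and Kdm5b (CPM over UMIs outside the granule list) in the 4 granule bins of the retinoic acid library, split into cells called G1 (green), S (yellow) and G2/M (blue). Kdm6b climbs in all 3 phases and reaches 54.7 CPM in G1, while Kdm2b reaches 14.5 CPM in G1 and stays near 38.2 CPM in S.

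Counts of the H3K27 erasers were set against those of the writer, Ezh2, in the same cells, a ratio of UMI counts that no scaling of the libraries affects. Kdm6a and Kdm6b together gave 56.3 counts (53.8 to 58.8) per 100 Ezh2 counts with vehicle and 29.3 (28.1 to 30.5) with retinoic acid, where Ezh2 had 5603 and 10282 counts. Over the retinoic acid bins the ratio went from 20.9 (19.3 to 22.7) through 24.7 and 31.1 to 50.3 (45.997 to 55.1). Kdm6b alone went from 9.91 to 35.9 per 100 Ezh2 counts and Kdm6a from 11.0 to 14.5. Ezh2 itself was at 105 CPM in the lowest and 84.9 CPM in the highest bin. The vehicle bins lay at 50.8, 49.97, 54.4 and 74.1 for both erasers. Kdm6b was highest in G1 cells, which made up 48.7% of the vehicle and 20.5% of the retinoic acid library. Their share also differed between the bins. The ratio was not taken within phases, and the part of phase in it was not tested.

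Other genes of the same pathways were read from 6 lists. Rcor1, Rcor2, Gfi1b, Rnf2, Bcor and Ezh1 are named after their values were seen. Uty and Kdm5d are named above as Y-linked copies of members, and the other genes by a set rule. The counts between libraries below stand beside 21.6% of all genes that differed at least 1.5-fold either way, and those along granule share beside 11.5% higher and 19.2% lower. Of 18 other histone demethylase and related JmjC genes, 12 had at least 5 CPM in either library. None was at least 1.5-fold higher with retinoic acid and 1 was lower, Kdm4b, at 5.00 and 3.28 CPM (log2 ratio −0.61, −0.81 to −0.41). TMM scaling ended that call. Kdm4b reached 5 CPM only with vehicle, so it could be counted only as lower. The members of this list with most counts were Kdm2a, the paralogue of Kdm2b, at −0.06, Jmjd6 at 0.02, and Riox1, a nucleolar ribosomal oxygenase, which at 0.50 (0.44 to 0.57) was the highest. Along the granule share of the retinoic acid library, Kdm7a, which removes methyl groups from H3 lysines 9 and 27, went with Kdm6b: it was at 18.7 CPM in the lowest and 41.0 CPM in the highest bin (1.13, 0.97 to 1.29). Kdm4c was also higher there, at 9.33 and 14.1 CPM (0.59, 0.34 to 0.84), and Kdm8 lower, at 5.60 and 3.57 CPM (−0.64, −1.09 to −0.22). Kdm8 reached 5 CPM only in the lowest bin, so it could be counted only as lower.

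Of 13 partners of KDM1A in and around the CoREST complex, 11 had at least 5 CPM, and their median log2 ratio was −0.05. Gfi1, the repressor that brings KDM1A to its targets in granulocyte precursors, was the only one at least 1.5-fold different, at 75.4 CPM with vehicle and 144 CPM with retinoic acid (0.93, 0.89 to 0.97). Hdac1 (0.28), Hdac2 (0.09) and Rcor1 (0.26) were slightly higher. Below 5 CPM, Gfi1b had 268 counts and 1 count (−7.64, −13.5 to −5.73), and Rcor2 328 and 77 counts (−2.24, −2.62 to −1.88). None of the 11 differed at least 1.5-fold between the retinoic acid bins.

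Of the 10 genes found of PRC1.1, the complex of KDM2B, 2 were at least 1.5-fold higher with retinoic acid and none lower, and the median log2 ratio was 0.31, against −0.01 over all genes. Rybp (4.08 and 8.24 CPM; 1.01, 0.84 to 1.19) and Bcorl1 (7.35 and 11.2 CPM; 0.61, 0.48 to 0.75) were the 2. Yaf2 was at 0.53, Usp7 at 0.15, Skp1a at 0.05 and the catalytic subunit gene Rnf2 at 0.47, while Bcor was at −0.47 (−0.54 to −0.40). The background share of genes at least 1.5-fold higher was 8.69%. Rybp reached 5 CPM only with retinoic acid, so it could be counted only as higher. With a limit of 20 CPM, 0 PRC1.1 genes were called. Along granule share Bcorl1 was higher (0.70, 0.47 to 0.94) and Skp1a lower (−0.59, −0.67 to −0.52).

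The 8 genes with at least 5 CPM of the KMT2C and KMT2D complexes, in which KDM6A resides, lay between −0.40 and 0.25 with none past 1.5-fold, Ash2l being lowest, Wdr5 at −0.02 and Dpy30 at 0.22. Of 6 writers of H3 lysine 4 methylation and their subunits, Kmt2a at 0.20, Setd1b at 0.18 and Cxxc1 at 0.30 had most counts, and none passed 1.5-fold. Of the 4 core genes of H3K27 methylation only Ezh2 did, at 0.72 (0.68 to 0.77). Suz12 was at 0.47, Eed at −0.09 and Ezh1, the second catalytic subunit, at −0.45 (−0.57 to −0.32).

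Genes with patterns most like those of the members were sought among those with at least 20 CPM, by Pearson's r of log2(CPM + 1) over the 8 groups of cells formed by both libraries' bins. These groups share 2 libraries, so r is a description. The nearest to Kdm6b were Plp2, Cebpe and Lcp1 (each r = 0.99). CEBPE is a transcription factor of late granulocyte maturation, and Lcp1 encodes the actin-bundling protein plastin of leukocytes. The nearest to Kdm1a were Zdhhc5, Rsrc1 and Dnm1l, to Kdm2b Psmb7, Eif4h and Synj2bp, to Kdm4a Ogt, Trim35 and Fam117b, to Kdm5a Rnf10, Pnisr and Ccnt2, to Kdm5c Vkorc1l1, Dnajb6 and Ywhaq, and to Kdm6a, whose level varied least, Picalm, Inafm2 and Gnb1 (r from 0.93 to 0.95). Kdm5b had Kdm4a among its nearest (r = 0.96), with Adss and Marf1.

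Among the members, Kdm4a, Kdm5a and Kdm5b varied together over these groups (r from 0.88 to 0.96), and Kdm6b and Kdm1a went in opposite directions (r = −0.84). So did Kdm2b and Kdm6a (r = −0.87) and Kdm2b and Kdm4a (r = −0.85). Kdm6a with Kdm4a (r = 0.85) and Kdm1a with Kdm2b (r = 0.84) went the same way. Differences between the libraries enter all these values. Kdm4a, Kdm5a and Kdm5b were each lower with retinoic acid, and this difference between libraries enters r. Whether they varied together within a library was not tested. Barcodes with at most 0.1% mitochondrial UMIs, 144 with vehicle and 490 with retinoic acid, differed from the other cells by log2 ratios from −1.49 (Kdm5b) to −0.06 (Kdm6b) with vehicle and from −1.01 (Kdm6a) to −0.02 (Kdm4a) with retinoic acid. The interval took in 0 for Kdm6a with vehicle, Kdm4a with retinoic acid, and Kdm6b and Kdm5c in both libraries. Without these cells Kdm6b was at 1.52 and Kdm1a at −0.67 between the outer retinoic acid bins.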

How the data were processed

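The authors deposited raw UMI counts per gene and cell. Per the file headers, Cell Ranger 4.0.0 made them. Genome builds mm10 and GRCm38.p4 are named in the submitters' processing notes. Kits of version 2 chemistry and a target of 6000 cells per library are given per the labels' protocols. The annotation release and the cell calling rule are not given in the sources used here. Coordinates are those of GENCODE M21 (GRCm38), matched by identifier for 32158 of 32285 genes.

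Barcodes under 1000 UMIs, under 500 genes or over 10% mitochondrial UMIs were dropped (310 of the vehicle library, 276 of the other). No doublet caller was run and none were removed; an alternative left out the 5% deepest cells. Ratios add 0.5 counts to each sum and carry exact binomial intervals; levels carry exact Poisson and shares exact Clopper-Pearson intervals, and differences of shares Newcombe's. Cells with at least 5000 UMIs entered the granule bins and were thinned to 5000 for shares and phases, leaving out 194 and 481 cells. Phases came from scanpy 1.11.5 scoring over genes seen in at least 10 cells. A difference was called at 1.5-fold among genes with at least 5 CPM. The intervals were tested on simulated data that held only the counting error they assume, with no differences between cells, mice or preparations. That checks the calculation and not those differences. A count of 0 allows 3 counts. Alternatives included TMM scaling (edgeR 4.0.16), other filters, lists and phase calls. The members and the lists were chosen with earlier results of these data known. By the set rule, named genes were all members, list genes past 1.5-fold, the 3 genes of each list with most counts, and the 3 nearest patterns per member.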

Additional observations from a re-analysis of the deposited data

Results flagged for a closer look

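At the scaling used here, Kdm6b differed between the libraries in opposite directions in different phases. In G1 cells it was higher with retinoic acid, at 31.5 against 26.2 CPM (log2 ratio 0.27, 0.10 to 0.43), and in G2/M cells it was lower, at 12.6 against 14.1 CPM (log2 ratio −0.17, with an interval that ended just below 0). The difference between these 2 ratios was not tested, since each group held 1 library. TMM scaling, which added 0.08 to each log2 ratio between the libraries, would shift the G2/M interval to take in 0. The highest granule bin held 37.1% G1 cells in the retinoic acid library against 14.2% to 15.6% in the other bins; the part of this in the G1 value was not tested.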

How the results depend on the processing

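No paired analysis was possible because there was only 1 library for each treatment, so none could be left out either. Of 300 recomputed values, 243 moved by less than counting error (for counts of genes, by less than 1.5 times). Of 280 member values, 260 kept their sign. Causes were not tested except where a setting's construction gives them. Retinoic acid over vehicle: TMM scaling added 0.08 to each log2 ratio, giving 0.36 for Kdm1a, 0.55 for Kdm2b, −0.14 for Kdm5a and −0.29 for Kdm5b. Equal weight for every cell gave −0.60 for Kdm4a, which passes 1.5-fold, and −0.34 for Kdm5c. The vehicle shares of phases turned Kdm6b to 0.17 and gave 0.37 for Kdm2b and −0.13 for Kdm5b. Highest over lowest retinoic acid bin: all UMIs in the total gave −0.85 for Kdm1a, −0.53 for Kdm2b, −0.29 for Kdm5a and −0.38 for Kdm5b. The list widened by 4 genes gave −0.47 for Kdm1a and 0.040 for Kdm5a. G1 cells alone gave −1.12 for Kdm2b, 0.17 for Kdm4a and 0.082 for Kdm5b. Chosen after seeing the data, S cells alone gave −0.049 for Kdm2b and −0.75 for Kdm5b, and G2/M cells alone 0.93 for Kdm6b and −0.42 for Kdm5b. Fixed bands gave 1.78 for Kdm6b, −0.82 for Kdm1a and −0.52 for Kdm2b. The 1972 genes at least 1.5-fold different became 923 at 2-fold, 1014 with at least 20 CPM and 8677 with no limit; 0 of the 8 members were called under each of these and under TMM scaling. Of the other lists, 0 other demethylases were called at 20 CPM or with TMM scaling, and 0 PRC1.1 genes at 20 CPM against 3 with TMM scaling. Phases scored against all genes gave S over G1 ratios for Kdm5b of −1.44 with vehicle and −0.97 with retinoic acid, and −1.14 for Kdm6b in G2/M over G1 with retinoic acid. Fixed bands of the vehicle gave 1.21 for Kdm6b and 0.74 for Kdm5b.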
